A study of Homo sapiens with 6 samples.

Results

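The genes of the 2 condensin complexes and of type II DNA topoisomerase were followed in HCT116 cells with and without a short hairpin RNA (shRNA) against TCF7L1. Members were chosen by name: SMC2, SMC4, NCAPD2, NCAPD3, NCAPG, NCAPG2, NCAPH, NCAPH2, TOP2A and TOP2B. All 10 are on the array, with 17 of its 47225 probes, and 10 of the 20043 genes named on the array. HCT116 is an established human colorectal carcinoma line. The control group carried a control hairpin (shCtrl, 3 arrays) and the other group a hairpin against TCF7L1 (shTCF7L1, 3 arrays); both shared the cell line, and the labels give no other treatment, time or number of hairpins. Total RNA was hybridised to Illumina BeadChips, which report for each probe the mean brightness of many beads. The series calls the arrays of a condition biological replicates. TCF7L1 is a DNA-binding protein of the TCF/LEF family, which acts at the end of the Wnt pathway, and the series asks which transcripts differ when it is depleted.

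Condensins are ring-shaped protein machines that extrude and hold loops of DNA and so turn interphase chromatin into compact mitotic chromosomes. Both complexes share the ATPases SMC2 and SMC4. Condensin I adds NCAPD2, NCAPG and the kleisin NCAPH, which closes the ring, and reaches chromosomes after the nuclear envelope breaks down. Condensin II adds NCAPD3, NCAPG2 and the kleisin NCAPH2 and is in the nucleus throughout interphase. Type II topoisomerases pass one double helix through another and untangle sister chromatids. TOP2A is made mainly in dividing cells and peaks in G2 and mitosis, whereas TOP2B is made in dividing and resting cells alike.

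Each array detected 34.0% to 36.8% of its probes (detection p below 0.01 against negative control beads). Pairs of arrays from one group had correlations of 0.971 to 0.975 over the tested genes, and pairs across groups 0.942 to 0.948. The array of shTCF7L1 replicate 3 stood apart from replicates 1 and 2 of its group on the second principal component, which held 13.6% of the variance. The 6 arrays shared 1 chip, on which the groups held different positions, and these cannot be told apart. For TCF7L1 itself, probe ILMN_1733841 gave bead signals of 45.1, 35.8 and 40.6 in shCtrl and 29.3, 32.4 and 25.4 in shTCF7L1. It was lower in every knockdown array but dim: 2 of 3 control arrays and 0 of 3 knockdown arrays were above background. The mean control level was 1.02-fold above the detection limit of the knockdown arrays. That mean includes shCtrl replicate 2, itself not above background, so it gives no lower bound on the decrease. The fitted log2 difference was -0.53 (limma adjusted p = 0.0800). Of the epithelial markers 5 of 5 (EPCAM, CDH1, KRT8, KRT18, KRT19) were detected on all arrays, while PTPRC, CD3E, PECAM1, CDH5, COL1A2 and PDGFRB were detected on none. CD14 was detected on 1 control and 2 knockdown arrays, and COL3A1, DCN and VWF on 1 array each. Summed signal of the 5 epithelial markers was 7763 to 9700 in shCtrl and 6969 to 9538 in shTCF7L1, and KRT8 fell (log2 -0.82, SE 0.24, adjusted p = 0.0305). The other 4 did not pass, with log2 values of -0.53 for CDH1, -0.37 for KRT18, -0.02 for KRT19 and 0.42 for EPCAM. Other probes gave -0.14 for KRT18, and 0.00 and 0.19 for EPCAM. Summed signal of the 5 fibroblast markers was 155 to 188 in shCtrl and 198 to 314 in shTCF7L1, and COL1A1, the only one detected on all arrays, rose (log2 1.14, SE 0.28, adjusted p = 0.0116). Summed signal of the 3 leukocyte markers on the array was 80.0 to 106 in shCtrl and 102 to 107 in shTCF7L1, and of the 3 endothelial markers 84.9 to 102 and 87.4 to 91.4. All these sums include the background of each probe. The part of these genes in the results was not tested.

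Of the 9 condensin and topoisomerase II genes that could be tested, 5 fell in TCF7L1 knockdown cells. The decrease was deepest for TOP2A, whose level in the knockdown was 28.7% of control, followed by the condensin I subunits NCAPG (40.0%) and NCAPD2 (44.6%). The condensin II subunit NCAPG2 (57.5%) and the shared ATPase SMC2 (62.7%) also fell. SMC4, NCAPD3, NCAPH2 and TOP2B had negative values that did not pass the test, and NCAPH was not above background on any array. Thus 5 of the 9 tested genes fell and 0 rose at an adjusted p below 0.05 in limma, where 7.11% of the 10470 genes tested were called lower, 7.85% higher and 15.0% in either direction. Of the 1566 genes called, 52.5% were higher in the knockdown, and with the authors' processed values 68.3% of 1039 were. The median log2 fold change (shTCF7L1 minus shCtrl) was -0.73 in the 9 genes and 0.02 over all tested genes. A negative value was found in 9 of 9 genes, against 48.0% of all tested genes. In 7 of 9 genes every knockdown array lay below every control array, against 15.8% of all tested genes (33.9% did not overlap in either direction). Each of the 9 was detected on all 6 arrays, so none entered through one group alone. With the authors' processed values, or without shCtrl replicate 3, 3 members fell in place of 5. In bulk RNA fewer cells in G2 or mitosis and less of a transcript per cell cannot be told apart.

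**Figure D1:**
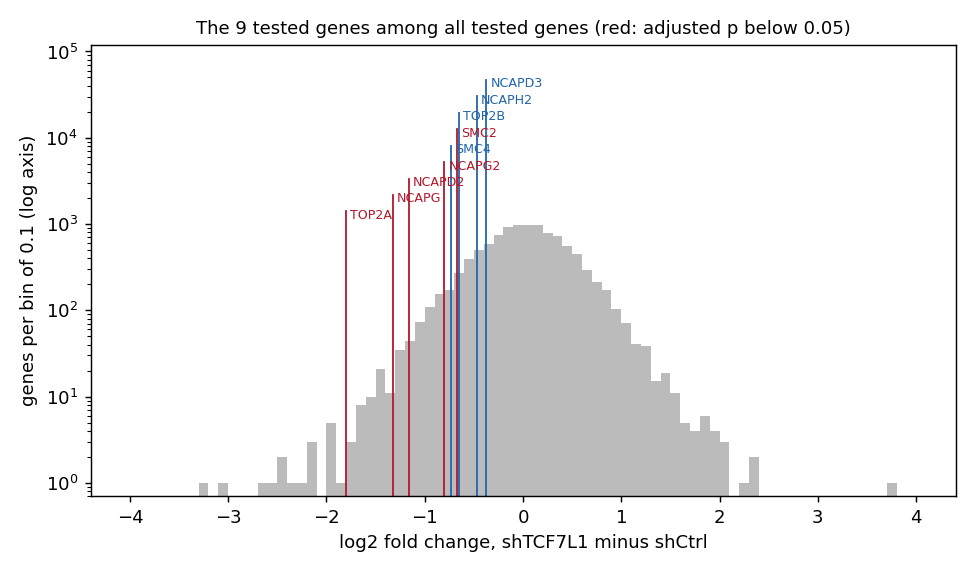
Histogram of log2 fold changes (x axis, shTCF7L1 minus shCtrl) of the 10470 tested genes in bins of 0.1, with the number of genes on a log axis; vertical lines mark the 9 tested condensin and topoisomerase II genes, at heights that serve only to separate their names. All 9 lines lie left of 0, from -1.80 (TOP2A) to -0.37 (NCAPD3), and red lines mark the 5 genes with an adjusted p below 0.05.

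The 3 genes whose call held under each of the 17 alternatives of processing, TOP2A, NCAPD2 and NCAPG, are shown with their promoters. The windows run from 250 bases before to 50 bases after the annotated start (RefSeq, GRCh38.p14), 5′ to 3′ on the strand of the gene. They lie at chr17:40417847-40418146 (minus strand), chr12:6493852-6494151 (plus strand) and chr4:17810729-17811028 (plus strand). Capitals mark TTTGAA, the core of the cell cycle genes homology region (CHR), and CCAAT, the core of the element that NF-Y binds, each on either strand (reverse complements TTCAAA and ATTGG).
TOP2A: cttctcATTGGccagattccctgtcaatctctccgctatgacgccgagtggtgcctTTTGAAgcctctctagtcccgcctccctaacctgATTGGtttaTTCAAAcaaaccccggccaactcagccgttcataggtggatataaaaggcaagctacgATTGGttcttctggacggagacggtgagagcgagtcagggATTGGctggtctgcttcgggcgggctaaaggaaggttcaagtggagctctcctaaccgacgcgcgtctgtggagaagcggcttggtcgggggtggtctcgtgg
NCAPD2: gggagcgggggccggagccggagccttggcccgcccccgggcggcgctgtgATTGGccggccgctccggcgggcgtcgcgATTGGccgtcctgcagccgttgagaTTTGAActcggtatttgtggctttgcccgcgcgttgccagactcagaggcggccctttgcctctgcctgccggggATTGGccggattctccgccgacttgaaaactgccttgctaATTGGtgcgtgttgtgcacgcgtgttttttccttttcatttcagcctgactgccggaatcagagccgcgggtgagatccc
NCAPG: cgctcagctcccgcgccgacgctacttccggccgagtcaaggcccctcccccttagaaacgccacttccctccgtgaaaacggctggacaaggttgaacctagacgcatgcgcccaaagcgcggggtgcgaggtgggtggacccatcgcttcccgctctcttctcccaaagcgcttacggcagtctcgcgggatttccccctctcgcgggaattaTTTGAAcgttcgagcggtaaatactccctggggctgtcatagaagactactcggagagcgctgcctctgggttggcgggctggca
The TOP2A window held 2 copies of TTTGAA and 4 of CCAAT, that of NCAPD2 1 and 4, and that of NCAPG 1 copy of TTTGAA and 0 of CCAAT. Counted from the start, the TTTGAA match began at -35 in NCAPG, at -145 in NCAPD2, and at -194 and -151 in TOP2A. Of the 10 members 9 had an entry, in 13 windows, since SMC2, SMC4, NCAPD3 and TOP2B had 2 each; NCAPH2 was not matched. TTTGAA occurred in 8 of 13 windows, covering 8 of the 9 genes (all but NCAPH), compared with 15.2% of 35116 promoter windows and 10.3% of the 12418 windows of tested genes. Both the genes that passed the test and those that did not (SMC4, NCAPD3, TOP2B) had a match. CCAAT occurred in 5 of 13 windows, against 34.6% of all windows and 35.3% of those of tested genes. A TCF/LEF motif, CTTTGAT, was found in 0 of 13 windows, against 2.62% of all windows and 1.59% of those of tested genes. Its variant CTTTGAA, which contains TTTGAA, was found in 2 (SMC2 and NCAPD3), against 4.43% and 2.69%. These matches describe letters in the windows and were not tested.

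The SMC ATPases form the arms and heads of the ring and hydrolyse ATP to move along DNA. For SMC2 (probe ILMN_2411190) the bead signal was 95.3, 80.3 and 92.9 in shCtrl and 75.6, 66.8 and 52.6 in shTCF7L1. The groups did not overlap, and shTCF7L1 replicate 3 was the lowest array. Normalized log2 intensity averaged 6.33 ± 0.08 in the controls and 5.65 ± 0.32 in the knockdown (SD, n = 3 each). The log2 fold change of -0.67 (SE 0.21, adjusted p = 0.0400) passed narrowly. It passed in 7 of 17 alternatives and was -0.43 at a background offset of 50. When single arrays were left out it passed only without shTCF7L1 replicate 1, with adjusted p up to 0.147 otherwise. A second kept SMC2 probe (ILMN_1748923) gave -0.64 (SE 0.20) and passed in the fit over all probes (adjusted p = 0.0402), while the third (ILMN_2296422) was not above background on any array.

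SMC4 is the partner of SMC2 in both rings. Its brightest probe (ILMN_2330861) read 518, 274 and 539 in shCtrl and 283, 239 and 305 in shTCF7L1. The groups overlapped because shCtrl replicate 2 was about as low as the knockdown arrays. The log2 levels were 8.72 ± 0.47 and 7.99 ± 0.22 (SD, n = 3 each), a difference of -0.73 (SE 0.24) just short of the threshold (adjusted p = 0.0503). Without shCtrl replicate 2 the value was -0.99 and passed (adjusted p = 0.0178), the only one of 6 single arrays whose removal did this. Without shCtrl replicate 3 it was -0.55 (adjusted p = 0.192), and over all 17 alternatives SMC4 passed in 7. A dimmer SMC4 probe (ILMN_2251804) separated the groups, with signals of 91.6, 93.8 and 88.9 in shCtrl and 47.4, 70.1 and 58.2 in shTCF7L1. It gave -0.90 (SE 0.21, adjusted p = 0.0112 in the fit over all probes), and with the mean of its kept probes SMC4 passed (-0.81, adjusted p = 0.00908). The third SMC4 probe (ILMN_1683302) was not above background.

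Condensin I helps to compact mitotic chromosomes. NCAPD2, one of its HEAT-repeat subunits, read 507, 457 and 380.0 in shCtrl and 174, 247 and 229 in shTCF7L1 (ILMN_1775008). All control arrays lay above all knockdown arrays, and shTCF7L1 replicate 1 was the lowest. Log2 levels of 8.78 ± 0.19 and 7.62 ± 0.27 (SD, n = 3 each) gave a fold change of 2.24 (log2 -1.16, SE 0.21, adjusted p = 0.00207). The call held in 17 of 17 alternatives, with values from -1.27 to -1.01.

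NCAPG, the second HEAT-repeat subunit and part of the DNA clamp of condensin I, read 674, 639.7 and 407 in shCtrl and 279, 222 and 226 in shTCF7L1 (ILMN_1751444). The groups did not overlap, although shCtrl replicate 3 was well below the other control arrays. Log2 levels were 9.11 ± 0.40 and 7.79 ± 0.19 (SD, n = 3 each). NCAPG fell 2.50-fold (log2 -1.32, SE 0.23, adjusted p = 0.00149), and the value was -1.55 without shCtrl replicate 3. It passed in 17 of 17 alternatives, as NCAPD2 did. The kleisin NCAPH has 1 probe (ILMN_1657600), with signals of 30.4, 36.9 and 31.4 in shCtrl and 22.8, 30.3 and 21.3 in shTCF7L1. None of these lay above background, so no fold is read from them and the ring-closing subunit of condensin I is not assessed here.

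Condensin II begins condensation in prophase and shapes the long axis of the chromosome. NCAPG2, its counterpart of NCAPG, read 248, 199 and 289.9 in shCtrl and 154, 134 and 175 in shTCF7L1 (ILMN_2066756). The groups were separate, and the lowest control array was replicate 2. Log2 levels were 7.90 ± 0.24 and 7.10 ± 0.23 (SD, n = 3 each), and NCAPG2 fell 1.74-fold (log2 -0.80, SE 0.21, adjusted p = 0.0180). The call was lost without shCtrl replicate 3 (adjusted p = 0.0811), without shTCF7L1 replicate 2 (adjusted p = 0.0758) and with the authors' processed values (adjusted p = 0.0815). Its other probe (ILMN_1669826) was not above background.

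NCAPD3, the condensin II counterpart of NCAPD2, read 142, 133 and 124 in shCtrl and 113, 112 and 111 in shTCF7L1 (ILMN_1683441). All 3 knockdown values lay close together and below the controls. The log2 levels, 6.97 ± 0.11 and 6.60 ± 0.03 (SD, n = 3 each), differed by -0.37 (SE 0.19), which did not pass (adjusted p = 0.202, 95% interval -0.78 to 0.03). It passed in 0 of 17 alternatives. NCAPH2, the kleisin of condensin II, read 123, 114 and 126 in shCtrl and 88.3, 113 and 89.7 in shTCF7L1 on its brightest probe (ILMN_1715908). The groups did not overlap but shTCF7L1 replicate 2 was close to the controls, and the log2 difference of -0.47 (SE 0.20) did not pass (adjusted p = 0.119). Another kept NCAPH2 probe near background (ILMN_1736005), detected on 1 control and 2 knockdown arrays, had the opposite sign (0.31, SE 0.22), and with the mean of both probes the gene gave -0.08. The third NCAPH2 probe (ILMN_1712375) was not above background.

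TOP2A, the target of the anthracyclines and of etoposide and a common marker of proliferating cells, read 1039, 713 and 975 in shCtrl and 258, 314 and 256 in shTCF7L1 (ILMN_1686097). The groups were far apart, with shCtrl replicate 2 the lowest of the controls and shTCF7L1 replicate 2 the highest of the knockdown. Log2 levels were 9.79 ± 0.19 and 7.99 ± 0.15 (SD, n = 3 each), a 3.48-fold decrease (log2 -1.80, SE 0.20, adjusted p = 3.65e-05). Counted from the largest decrease, TOP2A stood at rank 17 of 10470 tested genes, NCAPG at 69 and NCAPD2 at 116. The TOP2A value ranged from -1.90 to -1.67 over 17 alternatives, and it passed in each.

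TOP2B, the second vertebrate type II enzyme, which works mainly in transcription and in cells that have stopped dividing, read 1094, 679 and 784 in shCtrl and 517, 781 and 403 in shTCF7L1 (ILMN_1777663). The groups overlapped, since shTCF7L1 replicate 2 was about as bright as shCtrl replicate 3 and brighter than shCtrl replicate 2. The log2 levels, 9.69 ± 0.26 and 9.04 ± 0.47 (SD, n = 3 each), differed by -0.65 (SE 0.24), which did not pass (adjusted p = 0.0808). Without shTCF7L1 replicate 2 the value was -0.91 and passed (adjusted p = 0.0285), the only one of 17 alternatives in which it did.

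**Figure D2:**
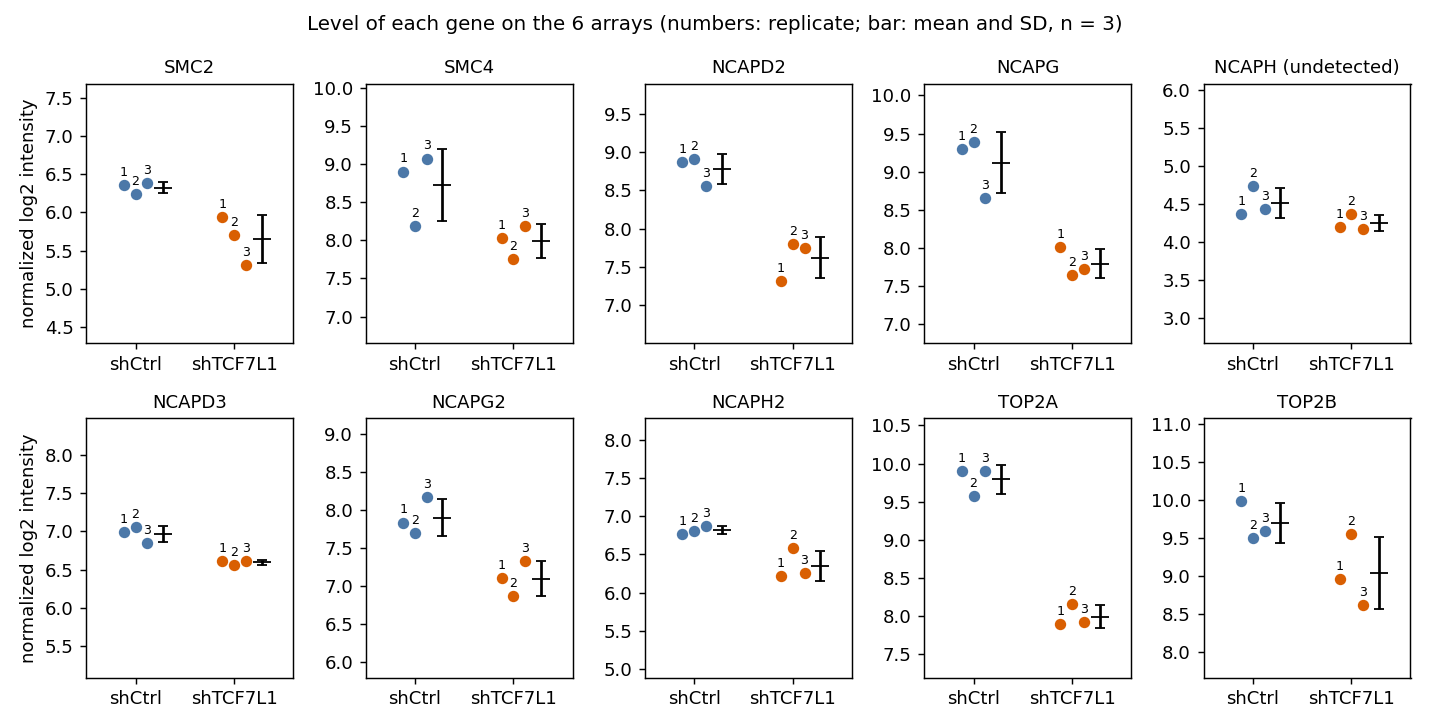
Normalized log2 intensity (y axis) of the brightest kept probe of each gene on the 3 shCtrl (blue) and 3 shTCF7L1 (orange) arrays, numbered by replicate, with mean and SD beside them; each panel has its own range of equal length. The groups are widely separate for TOP2A, NCAPG and NCAPD2, overlap for SMC4 and TOP2B, and NCAPH was not detected on any array.

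**Figure D3:**
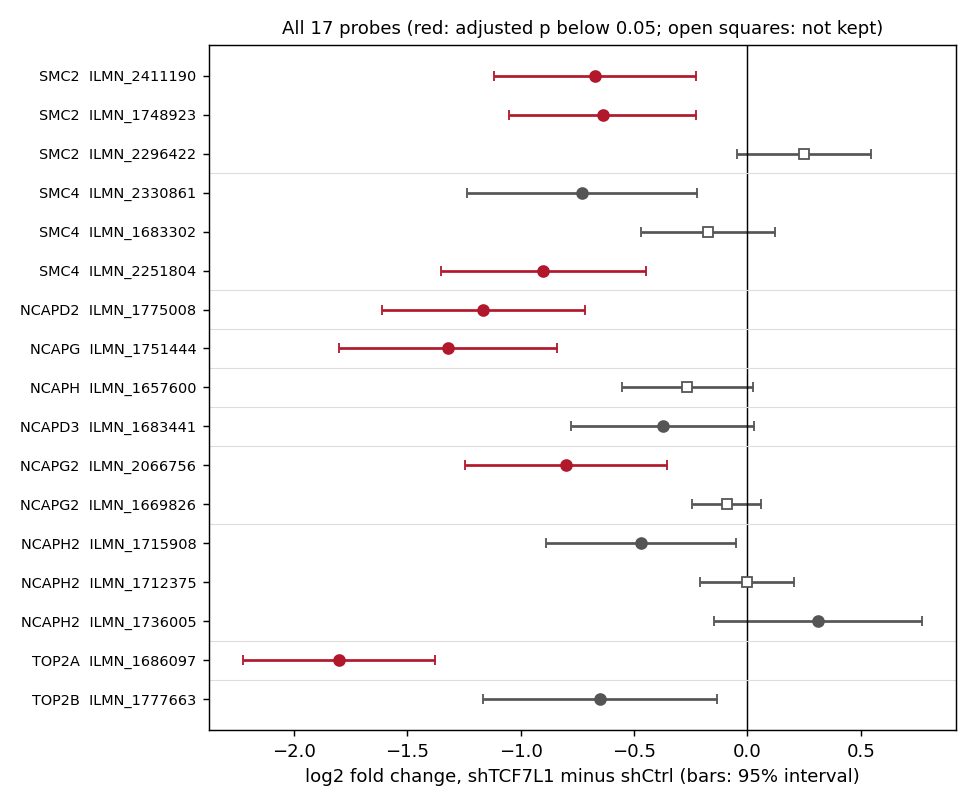
Log2 fold change (x axis, shTCF7L1 minus shCtrl) with its 95% interval for each of the 17 probes, from the fit over all 16835 kept probes. Open squares are the 5 probes that were not kept, from a fit over all 47225 probes. These were not above background, so their narrow intervals do not show precision. Red marks the 7 probes with an adjusted p below 0.05, all lower in shTCF7L1; probes of NCAPH2 differ in sign.

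Among probes, 12 of 17 were kept (detected on at least 3 of 6 arrays) and 7 of these fell, with 0 rising, where 6.58% of the 16835 kept probes were called lower and 13.0% in either direction. Probes of a gene share its transcripts and are not replicates. The 7 were 2 of SMC2 and 1 each of SMC4, NCAPD2, NCAPG, NCAPG2 and TOP2A. The 5 probes that were not kept were detected on 0 arrays each.

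Each condensin I subunit has a condensin II counterpart, and the topoisomerases form a further pair, so the change of one partner was set against that of the other within each array. This compares changes, not levels. Relative to the control mean, the TOP2A minus TOP2B difference was -1.16, -1.49 and -0.79 in the knockdown arrays and between -0.18 and 0.21 in the controls. TOP2A thus changed by -1.15 more than TOP2B on the log2 scale (SE 0.23), with no overlap of the groups. NCAPD2 changed by -0.79 more than NCAPD3 (SE 0.18), also with no overlap. NCAPG changed by -0.52 more than NCAPG2 (SE 0.40), and here the groups overlapped, since shCtrl replicate 3 stood at -0.73 in the control group. The exact 2-sided permutation p was 0.1 for each of the first 2 pairs, the smallest that 3 against 3 arrays allow, and 0.3 for the third. Adjusted over the 3 pairs these were 0.15, 0.15 and 0.3, so no difference between partners passed this test, which cannot go below 0.1 with 3 against 3 arrays. The pair of NCAPH and NCAPH2 could not be compared.

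Genes that act on condensin or work beside topoisomerase II were described from lists fixed by name. Among 17 tested regulators of condensin (median log2 fold change -0.50) 6 fell and 0 rose, where 7.11% of all tested genes were called lower and 7.85% higher. With a background offset of 50, or without a detection filter, 1 regulator rose. RB1, the retinoblastoma protein, which binds condensin II, read 125, 95.5 and 108 in shCtrl and 33.0, 46.8 and 53.6 in shTCF7L1. It fell (log2 -1.69, SE 0.23, adjusted p = 0.000226), but 1 of the 3 knockdown arrays was not above background. Its value moved to -1.04 at a background offset of 50 and to -2.54 with the authors' processed values, and RB1 was not tested when detection on all arrays was asked for. BIRC5, the survivin subunit of the chromosomal passenger complex, fell 2.99-fold (log2 -1.58, SE 0.19; -0.52, not past the test, for its other probe). CDK1, the mitotic kinase that phosphorylates condensin subunits, fell 2.69-fold (log2 -1.43, SE 0.23; -1.16 for its other probe). The kinesin KIF4A, which binds condensin I on chromosome arms, fell 1.86-fold (log2 -0.89, SE 0.19). AURKB and CDCA8, further subunits of the passenger complex, made up the 6. The casein kinase 2 genes CSNK2A1, CSNK2A2 and CSNK2B had values of -0.12, 0.52 and 0.25 and did not pass. Other CSNK2A1 probes had the opposite sign (0.09 and 0.49).

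The 13 tested genes of other topoisomerases and their partners had a median of -0.09, and 2 of them (15.4%) fell while 0 rose, beside 7.11% of all tested genes called lower. RMI1, a subunit of the complex of TOP3A and the BLM helicase that dissolves joined DNA molecules, fell 2.73-fold (log2 -1.45, SE 0.21; -1.15 for its other probe). ERCC6L, the translocase on ultrafine anaphase bridges, fell 1.84-fold (log2 -0.88, SE 0.20; -1.37 for its other probe). The enzymes TOP1 (0.33), TOP3A (0.56, and 0.40 for its other probe), TOP3B (0.30) and TOP1MT (-0.10, and -0.11 and 0.13 for its other probes) did not pass. Nor did the partners BLM (-0.71) and TDRD3 (-0.67). Of the 13 genes 9 had negative and 4 positive values. For the other SMC complexes 10 genes were tested (median -0.03); 1 fell and 0 rose, a share near the 7.11% of all tested genes. NSMCE1, a ubiquitin ligase subunit of the SMC5/6 complex, fell 1.96-fold (log2 -0.97, SE 0.22), though not with the authors' processed values. The cohesin ATPases SMC1A (0.36) and SMC3 (0.48, and 0.09 for its other probe) had positive values that did not pass. The cohesin subunits STAG2 (-0.53) and STAG1 (-0.14) had negative values that did not pass, and another STAG1 probe gave -0.61. Of the 10 genes 6 had negative and 4 positive values. SMC1A was near background, detected on 1 control and 3 knockdown arrays, and so was kept because of the knockdown group.

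Condensin and TOP2A transcripts are known to peak late in the cell cycle, and 2 lists give the setting. The list of 40 transcripts of G2 and mitosis had a median of -0.84. It holds all of the 6 called condensin regulators except RB1, and other regulators that were not called, so the 2 counts are not independent. Of the 40, 26 (65%) were lower and 0 higher past the test, where 7.11% of all tested genes were called lower and 7.85% higher. HMMR, a spindle protein, had a log2 value of -2.42 (SE 0.22), the checkpoint protein MAD2L1 -2.13 (SE 0.19), the CDK1-activating phosphatase CDC25C -1.95 (SE 0.19) and the checkpoint kinase BUB1B -1.67 (SE 0.21). Other probes gave -2.56 for HMMR, -1.36 for MAD2L1, and -1.81 and -0.80 for CDC25C. The 21 tested S phase transcripts had a median of -0.00154. Of the 21, 4 (19%) fell, 1 (4.76%) rose and 16 missed the threshold, beside the same shares of all tested genes. RRM2, the small subunit of ribonucleotide reductase, had -2.59 (SE 0.21), the polymerase subunits POLA1 -1.02 (SE 0.23) and POLE2 -0.93 (SE 0.24), and the licensing factor CDT1 0.98 (SE 0.22). With the authors' processed values 15 transcripts of the first list fell, and 1 of the second; without shCtrl replicate 2 or replicate 3, 2 S phase transcripts fell. The median of the condensin and topoisomerase II genes (-0.73) lay nearer that of the G2 and mitosis list than that of the S phase list. Whether the share of cells in G2 or mitosis differed between the groups was not tested.

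**Figure D4:**
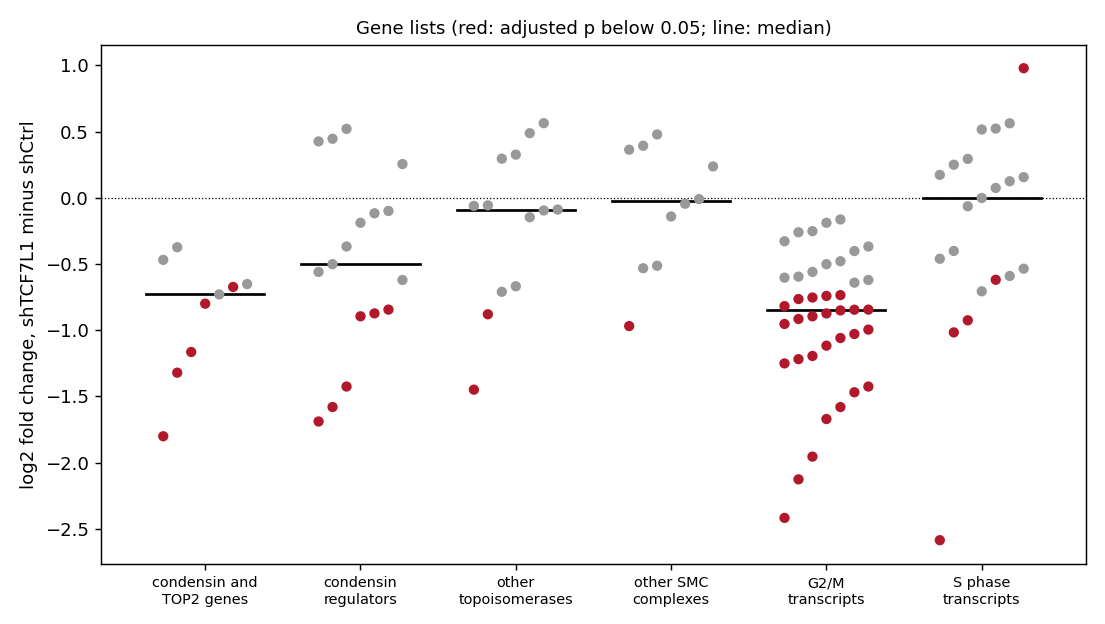
Log2 fold change (y axis, shTCF7L1 minus shCtrl) of each tested gene in 6 lists; red points have an adjusted p below 0.05, horizontal lines are medians, and the sideways spread only separates points. All 9 condensin and topoisomerase II genes and all 40 G2/M transcripts lie below 0, while the other 4 lists have genes on both sides.

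The 5 tested genes whose level most resembled that of TOP2A over the 6 arrays were FGGY, BNIP3, TPGS2, MRPL24 and HMMR, with Pearson correlations of 0.994 to 0.997. FGGY, a carbohydrate kinase gene, had the highest. All 5 were lower in the knockdown, at -1.16 (FGGY), -3.22 (BNIP3), -0.95 (TPGS2), -0.85 (MRPL24) and -2.42 (HMMR) on the log2 scale. Other FGGY probes gave -0.85 and -0.66, the latter not past the test (adjusted p = 0.0776). These points share the difference between the groups, and over deviations from the group means the correlations were 0.791 to 0.956. The genes were picked for likeness on these same arrays, which favours high values here too. The correlations describe these 6 arrays only.

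**Figure D5:**
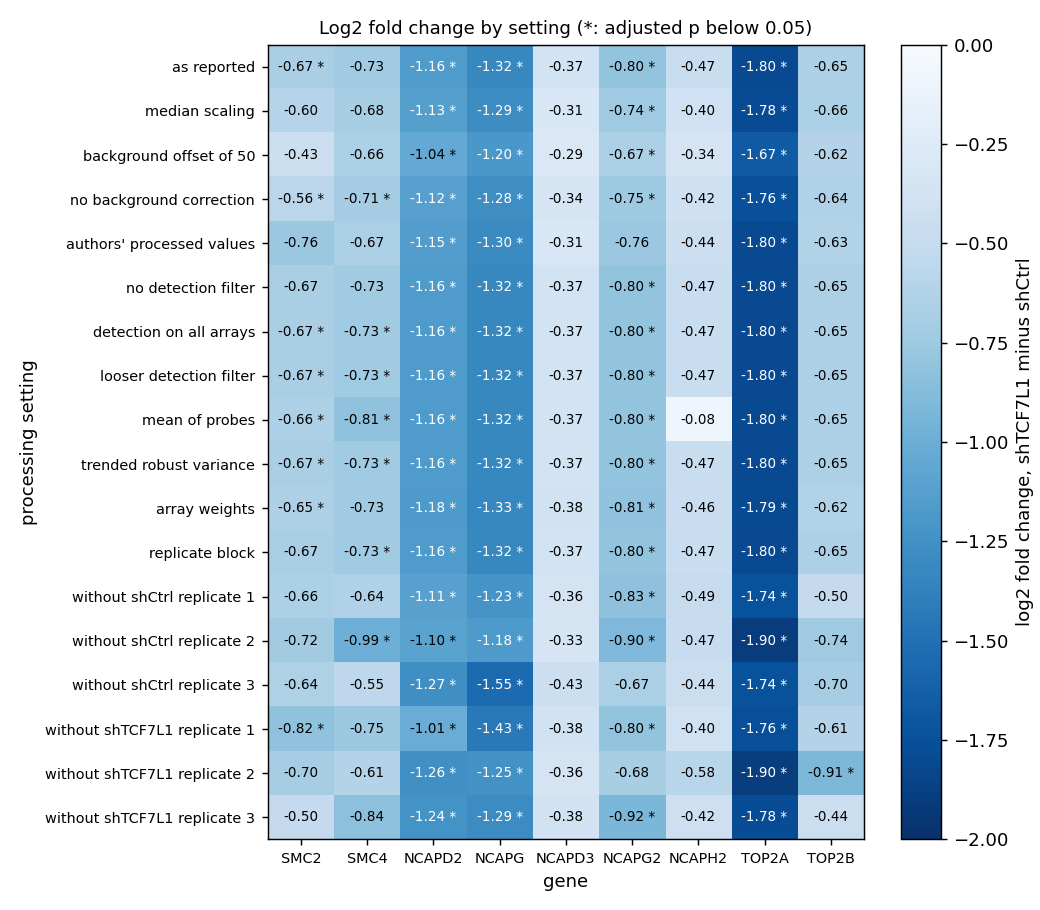
Log2 fold change (shTCF7L1 minus shCtrl; darker blue is lower) of the 9 tested genes (columns) as reported and under 17 alternatives of processing (rows), with an asterisk where the adjusted p was below 0.05. Every value is negative; TOP2A, NCAPG and NCAPD2 carry an asterisk in every row, NCAPD3 and NCAPH2 in none.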

How the data were processed

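Levels were taken from 6 arrays. Per the file headers, the deposited non-normalized table gives each probe an intensity (average bead signal, linear scale) and a detection p-value on every array. The submitters' processing notes name GenomeStudio 2011.1, without settings. A second set of intensities is in the authors' series matrix. Each array of it was a straight-line function of the first: 27.3 to 28.0 units subtracted, then scaled by 0.978 to 1.08 to an array mean of 145.7. It is linear and not centred, with array medians of 4.70 to 5.37, and served as an alternative.

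Intensities were corrected with normexp (offset 16, background from the detection p-values), and quantile normalized to log2 values by neqc (limma 3.58.1, R 4.3.3). Probes with a detection p below 0.01 on at least 3 arrays were kept (16835), and a gene was its kept probe of highest mean (10470 genes). The platform annotation gave 1 symbol to 30110 probes and several to 8, and did not list 17107. Symbols were updated through Entrez identifiers for 30071 probes, and 39 kept the annotation's. Groups were compared with limma (2-sided, no block) and Benjamini-Hochberg adjustment over all genes tested, called at 0.05. The fit was tested on simulated data with independent noise. The simulation held no effect of array or chip position and does not bear on such effects. Paralog pairs used exact permutation tests. Precision is limited by the 6 arrays; mean signal was 162 to 177. Replicate numbers of the labels did not pair arrays (correlations of deviations -0.0113, -0.00655 and -0.00576 for numbers 1 to 3).

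Members, lists, motifs and tests were chosen with earlier results of these data known. Named are TCF7L1, the members, up to 4 called genes of largest change per list (or that of smallest p), and the 5 genes most like TOP2A; other genes named were chosen after their values were seen. Alternatives changed scaling, background, starting values, detection filter, probe choice, variance model, weights, block and single arrays.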

Additional observations from a re-analysis of the deposited data

How the results depend on the processing

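No value reversed its sign where it was computed: in 17 alternatives for each tested member and 14 for each paralog pair. The number was 16 for RB1, 13 for CD14 and 17 for the other tested genes named by the rule above. TCF7L1, which was not kept, and the genes named after their values were seen had no fold change computed under the alternatives. The median of the members stayed between -0.90 and -0.66, and every member kept a negative value. With the authors' processed values 1039 genes changed in place of 1566 (710 higher, 329 lower; increases made up 68.3% in place of 52.5%), the median of all genes was 0.13 in place of 0.02, and 3 members and 3 member probes fell in place of 5 and 7. Without a detection filter 4 member probes fell. Leaving out single arrays gave 987 to 1138 changed genes, 498 to 572 higher and 463 to 566 lower, 3 to 5 members lower and 4 to 6 member probes lower, the fewest members (3) without shCtrl replicate 3, and the fewest probes (4) without shCtrl replicate 3 or shTCF7L1 replicate 1. With the replicate number as a replicate block 1451 genes changed, 5 members and 6 member probes fell, the SMC2 call was lost (adjusted p = 0.0513) and SMC4 passed (adjusted p = 0.0322). KRT8 and COL1A1 lost their calls in 6 and 3 alternatives, POLE2 in 5, POLA1 in 2 and NSMCE1 in 1. The counts of the other gene lists were added to the alternatives after the data were seen. NCAPH and 4 further member probes were limited by signal at background.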
